A study of Mus musculus with 2 samples.

Results

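The expression of 6 S100 genes was followed in mouse GM-CSF bone marrow cultures that had received heme-albumin or albumin. The members were given as a list of names, with no threshold on a measured value, and were S100a8, S100a9, S100a4, S100a6, S100a10 and S100a11. They are 6 of the 26124 genes in the count matrices, which hold 17 genes of the S100 family. Progenitors came from the marrow of C57BL/6 mice aged 8 to 10 weeks and had been depleted of cells bearing lineage antigens, including the Gr-1 and CD11b antigens of neutrophils and monocytes. All cultures contained GM-CSF at 20 ng/ml, a growth factor for granulocytes, macrophages and dendritic cells. On day 3 the heme group was given 300 µM heme-albumin, and the control group was given the albumin vehicle. Each group was 1 droplet library with counting of transcript 3′ ends by unique molecular identifiers (UMIs), and each library combined 5 cultures whose antibody hashtags name culture days 0, 3, 4, 5 and 7. The cultures of days 0 and 3 had not themselves been exposed. All cultures of a library were pooled before droplets were made, so their cells may carry free RNA of exposed cultures. Differences between the libraries on those days may therefore not all have been present before heme was added, and this was not tested. With 1 library per group there are no replicates and no test of the conditions, and every interval below is an exact 95% interval that covers counting error only.

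S100 proteins are small proteins that bind calcium through EF-hand loops and mostly act as dimers. S100A8 and S100A9 form the heterodimer calprotectin, which fills the cytosol of neutrophils, occurs at lower levels in monocytes, sequesters zinc and manganese, and acts as a ligand of Toll-like receptor 4 once released. S100A4 binds non-muscle myosin and is linked to cell motility. S100A6, or calcyclin, binds the calcyclin-binding protein and annexins. S100A10 is the light chain of the annexin A2 complex at the plasma membrane and is the member that no longer binds calcium. S100A11 pairs with annexin A1 and takes part in membrane repair.

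All 6 members lie on chromosome 3 within 2960873 bases in GENCODE M21 on GRCm38, and each has 3 exons. S100a4 (chr3:90603771-90606045, plus strand), S100a6 (chr3:90612882-90624181, plus strand), S100a8 (chr3:90668978-90670035, plus strand) and S100a9 (chr3:90692632-90695721, minus strand) form 1 group, in which S100a8 and S100a9 are 22596 bases apart. S100a11 (chr3:93520488-93526287, plus strand) and S100a10 (chr3:93555080-93564643, plus strand) form another group, 2824766 bases beyond S100a9. A processed pseudogene of S100a11 on chromosome 12 is not listed in the matrices, so reads of S100a11 that also match it may have been lost or counted for S100a11.

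The RefSeq promoter windows of 3 members are shown because S100a8 and S100a9 had nearly the same course over the cultures while their neighbour S100a4 did not. The letters run 5′ to 3′ on the strand of the gene and end before the first base that either annotation gives as transcribed, and capitals mark matches to the motifs listed after them. S100a8 is shown for chr3:90668821-90668977 (plus strand), S100a9 for chr3:90695722-90695971 (minus strand) and S100a4 for chr3:90603520-90603769 (plus strand), all on GRCm38.p6. Distances below are counted from the RefSeq start, which for S100a8 lies downstream of the GENCODE start given above, so the S100a8 stretch ends well before it.
S100a8: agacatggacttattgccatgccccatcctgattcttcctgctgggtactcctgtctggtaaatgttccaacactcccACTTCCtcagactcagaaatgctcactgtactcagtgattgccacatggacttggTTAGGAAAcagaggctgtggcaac
S100a9: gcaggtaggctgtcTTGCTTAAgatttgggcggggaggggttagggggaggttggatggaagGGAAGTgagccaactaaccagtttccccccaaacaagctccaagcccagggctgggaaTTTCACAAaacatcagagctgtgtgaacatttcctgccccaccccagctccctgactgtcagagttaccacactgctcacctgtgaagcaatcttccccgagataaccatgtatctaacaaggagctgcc
S100a4: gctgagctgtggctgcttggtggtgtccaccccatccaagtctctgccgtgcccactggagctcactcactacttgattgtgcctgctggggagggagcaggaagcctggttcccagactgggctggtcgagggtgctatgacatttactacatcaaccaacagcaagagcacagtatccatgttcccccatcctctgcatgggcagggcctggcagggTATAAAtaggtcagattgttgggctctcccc
Both strands of windows from 250 bases before to 50 bases after the start were searched, and 5 of the 6 members had a window. A C/EBP-type motif (TTNCNNAA), named for the family of myeloid transcription factors, occurred once in the S100a8 window, 117 bases before the start, and at 236 and 130 bases before the start of S100a9. The windows of S100a4, S100a6 and S100a11 held no C/EBP-type match, and 40.7% of all 32851 windows held one. An ETS core (GGAAGT) lay 172 bases before the start of S100a8, 188 before that of S100a9 and 193 before that of S100a11, and 23.8% of windows held one. The S100a4 window had its ETS core 17 bases after the start. A TATA box (TATAAA), found in 13.6% of windows, lay 30 bases before the start of S100a8, outside the stretch shown, and 31 bases before that of S100a4. The S100a9 window had TATAAA at the start itself. The antioxidant response element (TGACNNNGC), found in 12.4% of windows, was in none of the 5 windows. The S100a6 window matched none of these motifs. These matches describe letters and are neither evidence of a bound site nor of its absence.

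The control library held 198754588 UMIs in 13961 barcodes and the heme library 333481636 UMIs in 17378 barcodes. Barcodes with 1 hashtag that passed the cell limits of the study numbered 9247 and 9690, with 356 to 2563 cells per control culture and 1118 to 2481 per heme culture, and the smallest culture still held 2271401 UMIs. The libraries already differed in the unexposed cultures. The limit of 30% ribosomal protein UMIs removed 75% of the hashtagged barcodes of control day 0 and 24.9% of those of heme day 0. The limit of 5000 detected genes removed 4.82% to 8.34% of barcodes on control days 3 to 7 and 16.4% to 33.9% on heme days 3 to 7. Levels are given as CPM, the UMIs of a gene summed over the kept cells of a culture and scaled to a total of 1000000 UMIs, so a level reflects both how many cells expressed a gene and how much each held, and these cannot be told apart without the cell classes described further on. Because 3′ counting takes 1 end per transcript, CPM values were compared between genes without length correction. The libraries had 112 barcode sequences in common, of which 29 were kept in both.

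S100a8 and S100a9 were the most abundant genes of these cultures in the middle of the time course. Over days 0, 3, 4, 5 and 7 of the control library S100a8 stood at 3482, 51018, 74347, 39602 and 2020 CPM. The corresponding heme cultures had 1831, 56440, 84535, 52252 and 12968 CPM. Both libraries were thus low on day 0 and highest on day 4, and on day 7 the heme culture was far above the control culture. S100a9, its calprotectin partner, measured 3406, 45565, 66337, 37271 and 1864 CPM in the control library. It measured 1710, 48786, 70494, 41547 and 10521 CPM in the heme library. S100a8 ranked 1st and S100a9 2nd of all genes on days 3, 4 and 5 in both libraries. On day 7 their ranks were 94 and 99 in the control culture, and 3 and 7 in the heme culture. Together the pair took 14.1% of all UMIs on control day 4 and 15.5% on heme day 4, and 0.388% and 2.35% on day 7. From day 0 to day 3 S100a8 was 14.7-fold higher in the control library and 30.8-fold higher in the heme library. From day 5 to day 7 it was 19.6-fold lower in the control library and 4.03-fold lower in the heme library. The rise from day 0 depended on the limits on cells: over all barcodes with 1 hashtag S100a8 went from 825 to 42744 CPM in the control library and from 1303 to 31580 CPM in the heme library, so the larger rise was then that of the control library.

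**Figure D1:**
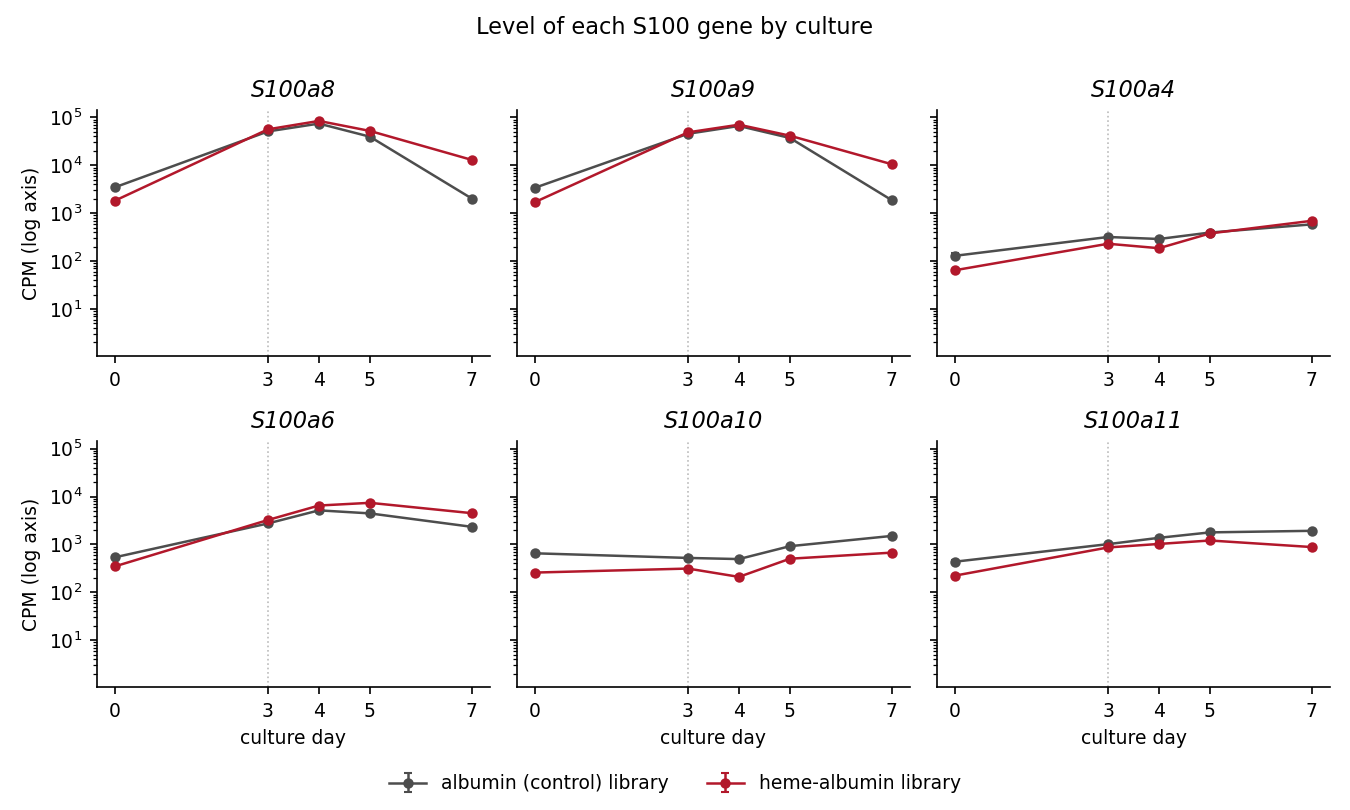
CPM (log scale) of each of the 6 members against culture day in the control and heme libraries, 1 point per culture summed over kept cells; the exact 95% Poisson intervals are mostly narrower than the points. S100a8 and S100a9 peaked on day 4 and stayed higher with heme on day 7 (12968 against 2020 CPM for S100a8), whereas S100a10 lay lower in the heme library on every day.

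The other members were far less abundant at the peak of the pair, and each followed a course of its own. S100a6 was the closest to the pair, with 539, 2743, 5150, 4447 and 2331 CPM on days 0, 3, 4, 5 and 7 of the control library. Its heme values were 349, 3237, 6492, 7395 and 4494 CPM, so its highest culture was day 4 in the control library and day 5 in the heme library. S100a11 measured 436, 1014, 1374, 1785 and 1925 CPM in the control library and was highest on its last day. In the heme library it measured 223, 865, 1024, 1208 and 881 CPM, with its highest value on day 5. S100a10 did not follow the pair: its control values were 652, 522, 495, 919 and 1506 CPM, lowest on the day when S100a8 was highest. The heme values of S100a10 were 258, 313, 210, 503 and 674 CPM and were below the control value in all 5 pairs of cultures. S100a4 was the least abundant member in every culture except heme day 7. Its control values were 129, 319, 289, 394 and 585 CPM and its heme values were 64.5, 230, 186, 378 and 694 CPM.

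The order of the members held beyond counting error in nearly all cultures. The only neighbours that could not be told apart were S100a8 and S100a9 on control day 0, with a UMI ratio of 1.02 (0.991 to 1.05). S100a8 led in every culture but control day 7, on which S100a6 was 1.15-fold above it (1.14 to 1.17) and the order ran on through S100a11, S100a9, S100a10 and S100a4. On heme day 7 S100a4 was 1.03-fold above S100a10 (1.01 to 1.05), whereas S100a10 was 2.58-fold above S100a4 on control day 7.

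S100a8 and S100a9 were both past 2-fold between heme and control on day 7 only. On day 7 S100a8 was 6.42-fold higher with heme (interval 6.37 to 6.47) and S100a9 5.64-fold higher (5.59 to 5.69), which is 2.68 and 2.5 on the log2 scale. On day 4 their log2 ratios were 0.19 and 0.088, and on day 5 they were 0.40 and 0.16. The unexposed day 3 cultures already differed by 0.15 and 0.099, and those of day 0 by -0.93 and -0.99. The differences of days 4 and 5 were thus smaller than that of day 0, and the difference of day 7 was larger. On day 7, 14.3% of 12838 genes with 20 or more UMIs were at least 2-fold higher with heme, and 2 of the 6 members were among them. At least 2-fold lower were 7.24% of the genes and another 2 members, S100a10 and S100a11. The median log2 ratio of all genes was 0.25 to 0.35 on the 5 days, so genes in general read slightly higher in the heme library. With TMM or DESeq2 factors, which bring that median near 0, and likewise with the mean over cells, the pair was lower with heme on days 3 and 4 and higher on day 7. When all barcodes with 1 hashtag were used, without limits on genes or on mitochondrial and ribosomal shares, the pair was lower with heme on days 3, 4 and 5 (log2 ratios -0.47, -0.21 and -0.57) and still higher on day 7 (2.02). The sign of the pair on days 3 to 5 therefore depended on the cell limits and the scaling, and that of day 7 did not under any setting tried.

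**Figure D2:**
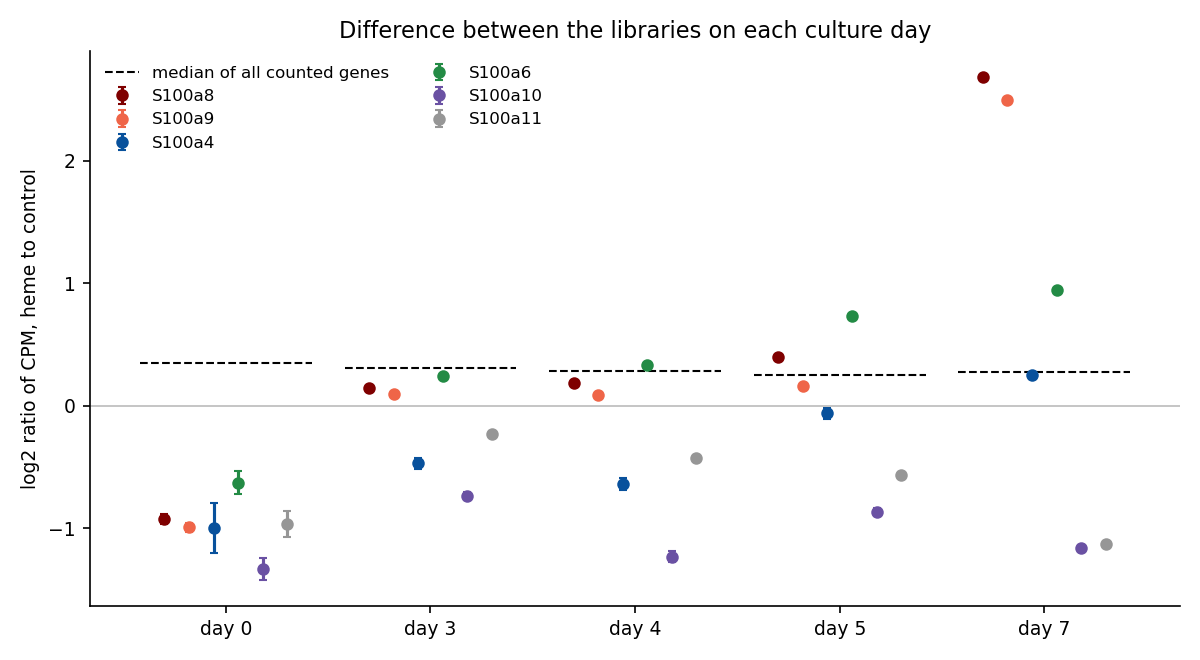
Log2 ratio of CPM, heme to control, for each member on each culture day, with exact 95% intervals for counting error. A grey line marks 0 and dashed lines mark the median of all counted genes on each day. S100a8 (2.68) and S100a9 (2.5) stood apart on day 7, S100a6 was above 0 from day 3 on, and S100a10 was below 0 on all 5 days.

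S100a6, calcyclin, was higher with heme on each day from day 3. Its log2 ratios were 0.24, 0.33, 0.73 and 0.95 on days 3, 4, 5 and 7, the last being 1.93-fold (1.91 to 1.95), short of 2-fold. Its day 3 sign turned under other cell limits and size factors, while days 4, 5 and 7 remained positive under every setting tried, with 0.051 to 0.33, 0.37 to 0.73 and 0.70 to 0.95. S100a10, the annexin A2 partner, and S100a11, the annexin A1 partner, were lower with heme on days 3, 4, 5 and 7 under every setting tried. On day 7 S100a10 was 2.23-fold lower (2.20 to 2.27), and on day 4 it was 2.36-fold lower (2.28 to 2.43). It had been 2.52-fold lower on day 0 and 1.67-fold lower on day 3, so the unexposed cultures showed a difference of the same direction. S100a11 was 2.18-fold lower on day 7 (2.15 to 2.22), and its log2 ratio was -0.23 on day 3. Relative to the day 3 ratio, the day 7 log2 ratios were -0.42 for S100a10 and -0.90 for S100a11, both within 2-fold. Over all barcodes with 1 hashtag the day 4 log2 ratio of S100a10 was -0.73, also within 2-fold. S100a4 had log2 ratios of -0.64, -0.062 and 0.25 on days 4, 5 and 7, without a steady direction.

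On day 0, 2 members were at least 2-fold lower in the heme library, S100a10 (log2 ratio -1.34) and, at the margin, S100a4 (-1.0), against 2.41% of 11723 genes, while 12.3% of genes and 0 members were at least 2-fold higher. Neither call held over all barcodes with 1 hashtag, where S100a10 was 172 CPM in the heme and 261 in the control library and S100a4 was 38.3 and 31.2 CPM. On day 3 neither direction held a member, with 8.04% of 12607 genes higher and 0.524% lower. On day 4, 1 member was lower (S100a10) and 0 were higher, against 2.92% and 9.65% of 12512 genes. On day 5 again 0 members were past 2-fold in either direction, against 9.10% of 12510 genes higher and 3.75% lower. With 6 members, these counts of 0 to 2 a day describe single genes and not a group, and the day 0 cultures were unexposed.

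Cell classes were rebuilt by clustering the kept cells of both libraries together without the S100 genes, and 25 clusters were obtained. A class was named only where at least 3 of its listed markers stood out. Cells of unnamed clusters made up 71.6% of the control and 5.47% of the heme culture of day 7. In neutrophil-like cells, the clusters led by genes such as Camp and Ngp of the specific granules or Mmp8 and Mmp9 of later stages, S100a8 reached 122770 CPM and S100a9 108598 CPM. Granulocyte-monocyte progenitor-like cells held 28593 CPM of S100a8, monocyte-like cells 2786, macrophage-like cells 2771 and dendritic cell-like cells 1578. The neutrophil-like class alone accounted for 81.5% of the UMIs of the pair. S100a6 was also highest there, with 7659 CPM against 3778 in macrophage-like, 2887 in monocyte-like and 2077 in dendritic cell-like cells, and 52.9% of its UMIs came from neutrophil-like cells. S100a11 was spread more evenly, with 2236 CPM in dendritic cell-like, 1278 in neutrophil-like and 796 in macrophage-like cells.

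S100a4 and S100a10, described as broadly expressed members, were scarce in neutrophil-like cells but not in dendritic cell-like, monocyte-like or macrophage-like cells. S100a10 measured 1320 CPM in dendritic cell-like, 977 in monocyte-like and 723 in macrophage-like cells but 55.5 CPM in neutrophil-like cells. Macrophage-like cells were nearly all of the heme library (1924 of 1930) and dendritic cell-like cells mostly of the control library (656 of 857), so class and library were mixed in this order. Control cells with macrophage markers were left unnamed. The cluster led by Arg1, Fn1 and Slc7a2, with 563 of its 566 cells from the control library, had 5 such markers raised. The macrophage-like values are therefore those of cells of the heme library. In heme cells alone S100a10 was 926 CPM in dendritic cell-like, 713 in monocyte-like and 723 in macrophage-like cells. S100a4 measured 881 CPM in dendritic cell-like, 753 in macrophage-like and 709 in monocyte-like cells, 54.5 in neutrophil-like cells and 23.4 in basophil or mast cell-like cells. Neutrophil-like cells contributed 2.46% of the S100a10 UMIs and 4.21% of the S100a4 UMIs, although they were the largest named class. S100a6 and S100a11 were above 700 CPM in each of the neutrophil-like, monocyte-like, macrophage-like and dendritic cell-like classes.

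**Figure D3:**
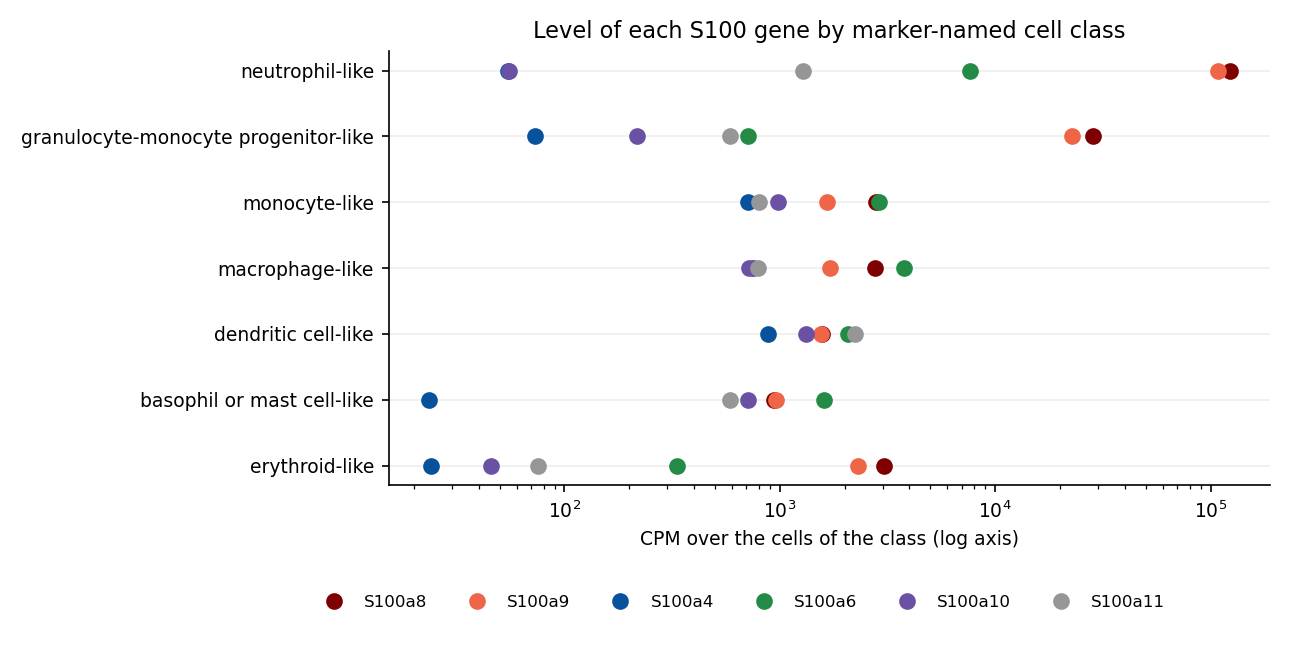
CPM (log scale) of each member summed over the cells of each class, both libraries and all days together, with classes named from listed markers and clustering done without S100 genes. S100a8 and S100a9 spanned from 122770 CPM of S100a8 in neutrophil-like cells to 942 in basophil or mast cell-like cells, and S100a4 and S100a10 were highest in dendritic cell-like cells (881 and 1320) against 54.5 and 55.5 CPM in neutrophil-like cells.

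Within the neutrophil-like clusters the members also differed. S100a6 was 4590 CPM in the cluster led by Camp, Ngp and Hist1h3c and 4442 in that led by Fcnb, Camp and Hmgn2. It was 11707 CPM in the cluster led by Retnlg, Ly6g and Ceacam10, 10987 in that led by Mmp9, Asprv1 and Olfm4, and 11508 in that led by Mmp8, Mmp9 and Fpr1. S100a6 thus read more than 2 times higher in the latter 3 clusters than in the former pair. S100a8 was 120049 CPM in the Camp, Ngp and Hist1h3c cluster, 156975 in the Retnlg, Ly6g and Ceacam10 cluster and 81837 in the Mmp8, Mmp9 and Fpr1 cluster. The last of these was 98.4% heme cells, and the Retnlg cluster was 5.87% heme cells, so cluster and library were largely confounded. Of the progenitor-like clusters, 2 were led by the primary granule genes Elane and Prtn3 and came mostly from day 3. They held S100a8 at 46586 and 40570 CPM with S100a6 at 516 and 813 CPM, so a high S100a8 level occurred there without a high S100a6 level. An unnamed cluster led by Car4, Csf1 and Il1rn, 1310 of its 1320 cells from the control library, held S100a8 at 44771 CPM and S100a6 at 8049 CPM, and a second unnamed cluster of both libraries held S100a8 at 80889 CPM.

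The share of neutrophil-like cells moved with the level of the pair. It was 1.97%, 36.5%, 54.5%, 27.7% and 1.17% of kept cells on days 0, 3, 4, 5 and 7 in the control library. In the heme library it was 1.16%, 46.7%, 74.0%, 63.9% and 23.5%. The upper limit on detected genes removed 8.34% of control and 33.9% of heme barcodes on day 3. These removed barcodes held the pair at 10360 (control) and 22110 CPM (heme), against 96584 and 105226 CPM in kept cells. Kept neutrophil-like cells were 687 of 2170 control and 1014 of 3464 heme barcodes with 1 hashtag on day 3. Removed barcodes were not clustered, so the day 3 direction without this limit was not tested. The control share depended on the clustering: with total scaling before clustering 1296 of 2347 control and 1219 of 1907 heme cells were neutrophil-like on day 5, and 332 of 2563 and 549 of 2012 on day 7. The summed level of the 10 listed neutrophil markers moved alongside, from 918 to 28208 CPM in the control cultures and from 1353 to 38274 CPM in the heme cultures, with none of the 10 at 0 in any culture. On day 7 the 472 neutrophil-like cells of the heme culture held 72.0% of the UMIs of the pair, while its 1361 macrophage-like cells, 67.6% of the culture, held 8.62%. In the control culture of day 7 the 30 neutrophil-like cells held 18.7% of the UMIs of the pair and unnamed clusters held 64.3%.

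Inside the neutrophil-like class the pair read lower with heme on days 3, 4 and 5 under every clustering tried. The pair took 288024 CPM in control and 223330 CPM in heme neutrophil-like cells on day 4, and 287122 and 182824 CPM on day 5. On day 3, before exposure, the levels were 259739 and 214750 CPM. The heme to control ratio before exposure was 0.827 (0.825 to 0.828). One day after heme addition it was 0.775 (0.774 to 0.777), and on day 5 it had reached 0.637 (0.635 to 0.638). The pair thus took a smaller part of the UMIs of the class with heme on all 3 days, and in this clustering the gap was wider after exposure than before. On day 5, however, 519 of 650 control cells of the class were in the Retnlg, Ly6g and Ceacam10 cluster and 867 of 1218 heme cells in the Mmp8, Mmp9 and Fpr1 cluster. Another 690 control cells of day 5, in the unnamed Car4, Csf1 and Il1rn cluster, held 20.0% of the pair UMIs outside the class. The ratio therefore does not compare like cells. With total scaling before clustering the ratio was 0.855 on day 3, 0.797 on day 4 and 0.845 on day 5, so on day 5 the gap was then about that of the unexposed cultures. On day 7 the ratio was 0.553 (0.546 to 0.561), but it rested on 30 control cells with a median of 2036 UMIs, 22 of them in the Retnlg, Ly6g and Ceacam10 cluster, against 472 heme cells with a median of 6196 UMIs, 268 of them in the Mmp8, Mmp9 and Fpr1 cluster. With total scaling before clustering, 332 control cells were named neutrophil-like on day 7 and the ratio turned to 1.27 on the log2 scale, so the day 7 direction depended on the clustering, whereas days 3, 4 and 5 stayed below 0 under all 4 other clusterings.

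**Figure D4:**
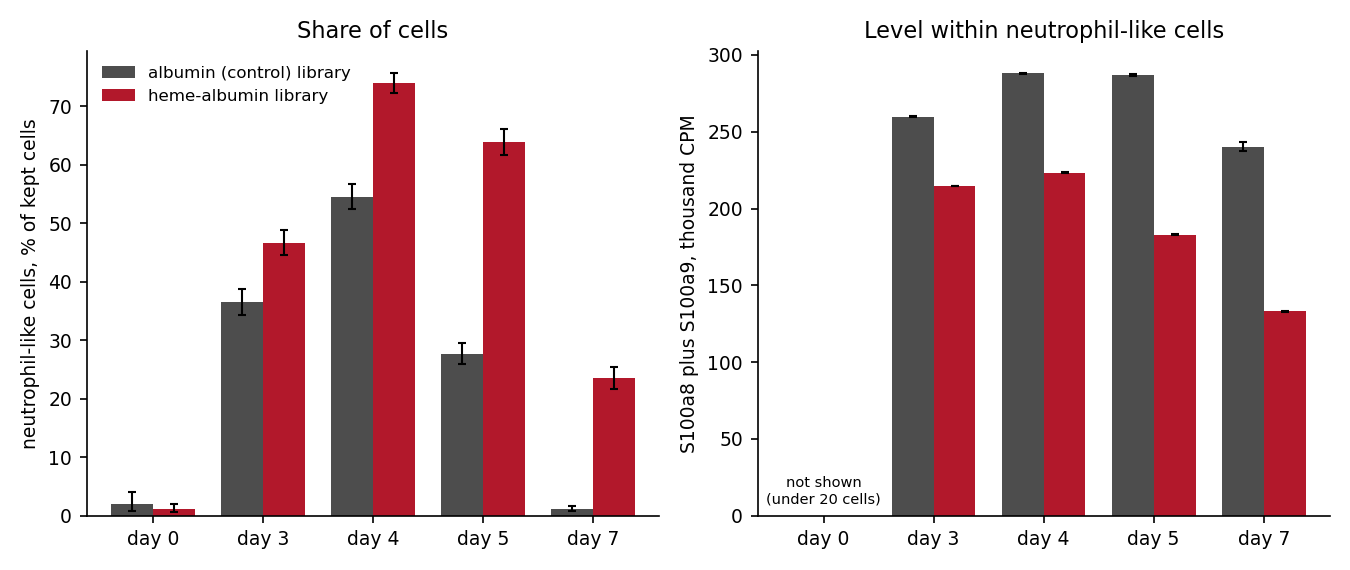
Share of kept cells in neutrophil-like clusters (percent, exact 95% binomial interval) and summed S100a8 and S100a9 level within those cells (CPM, exact Poisson interval) against culture day in both libraries; levels are drawn for cultures with at least 20 such cells. In this clustering the share of kept cells was higher with heme from day 3 on, with 23.5% against 1.17% on day 7. With total scaling before clustering, the day 7 counts were 549 of 2012 heme and 332 of 2563 control cells. On day 3 the upper limit on detected genes removed 33.9% of heme and 8.34% of control barcodes. The day 3 direction without that limit was not tested. The level within the class was lower with heme on days 3 to 5. On day 7 it was lower in this clustering but not with total scaling before clustering.

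The scarce members behaved otherwise inside this class. S100a10 in neutrophil-like cells measured 26.5, 28.0 and 30.3 CPM on days 3, 4 and 5 of the control library and 32.7, 52.0 and 129 CPM in the heme library. All 3 control values lay below the 53.3 CPM of free RNA in day 0 erythroid-like cells of that library. The heme values of days 3 and 4 were near the 44.6 CPM of theirs, so a ratio between the libraries is not informative here. The heme day 5 value was above the erythroid-like one. The erythroid-like cluster had a median of 18432.5 UMIs, against 5272 in the Mmp8, Mmp9 and Fpr1 cluster and 6732 in the Mmp9, Asprv1 and Olfm4 cluster. Free RNA may take a larger share of shallower cells, so the day 5 value cannot be placed above background with certainty. S100a4 likewise measured 14.1, 28.2 and 39.3 CPM in control and 23.6, 52.5 and 151 CPM in heme neutrophil-like cells, a ratio of 3.86 on day 5 (3.28 to 4.55). Both genes were therefore higher in heme than in control neutrophil-like cells on day 5, at levels below the pooled values of the dendritic cell-like, monocyte-like and macrophage-like classes. The Mmp8, Mmp9 and Fpr1 cluster, which held most heme neutrophil-like cells on day 5, also carried macrophage markers, with Adgre1 at 217 CPM and Csf1r at 177 CPM, and their part in this result was not tested. S100a6 had ratios of 1.02, 0.969 and 1.22 in the class on days 3, 4 and 5.

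Outside the neutrophils the annexin partners were compared after exposure in the dendritic cell-like class only, where they kept the direction seen in whole cultures. On day 7 the macrophage-like class had 1 control cell and the monocyte-like class 9 heme cells. In dendritic cell-like cells S100a10 measured 859, 1290 and 1630 CPM on days 4, 5 and 7 of the control library and 630, 1097 and 1055 CPM in the heme library. The ratios were 0.734, 0.851 and 0.648, the last with an interval of 0.594 to 0.705 from 442 control and 37 heme cells. S100a11 in the same cells had ratios of 0.885, 0.778 and 0.689, so both genes were lower with heme in this class on each day. S100a6 had ratios of 1.18, 1.66 and 1.06 there. In monocyte-like cells of day 3, before exposure, S100a10 already had a ratio of 0.676 (0.655 to 0.698) and S100a11 one of 0.720 (0.694 to 0.747). The same direction was thus present between the unexposed cultures of day 3.

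S100a8 exceeded S100a9 in each culture, on control day 0 within counting error, and the balance of the pair differed between libraries. S100a8 UMIs per S100a9 UMI were 1.02, 1.12, 1.12, 1.06 and 1.08 on days 0, 3, 4, 5 and 7 of the control library. In the heme library they were 1.07, 1.16, 1.2, 1.26 and 1.23. The intervals of the 2 libraries did not overlap on days 3, 4, 5 and 7, by counting error alone, and the day 3 cultures were unexposed. By cell class the balance was 1.86 and 1.55 in the 2 monocyte-like clusters and 1.83 in the macrophage-like cluster with more S100a8. It was 1.08 in the other macrophage-like cluster, which held S100a8 at 980 CPM, and 1.01 in dendritic cell-like cells. Among neutrophil-like clusters it was 1.34 in the Mmp8, Mmp9 and Fpr1 cluster and 1.06 to 1.14 in the others. S100a8 therefore prevailed over S100a9 most in the monocyte-like clusters and in 1 of the 2 macrophage-like clusters.

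**Figure D5:**
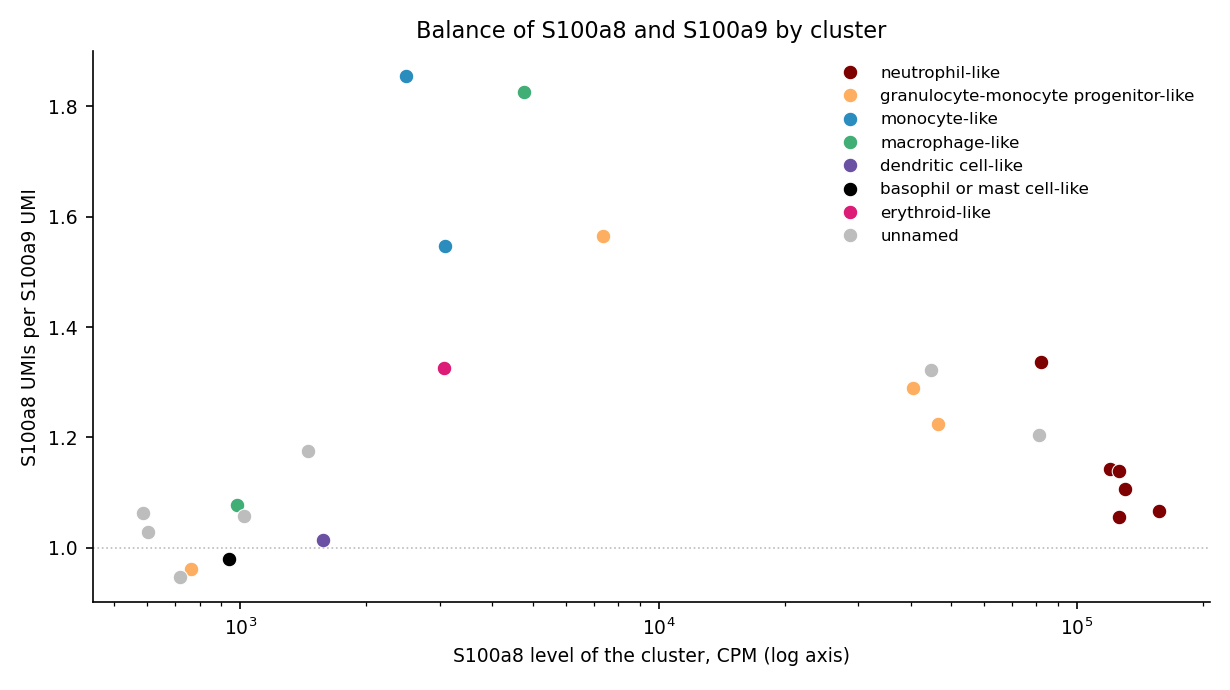
S100a8 UMIs per S100a9 UMI of each cluster with at least 20 cells against the S100a8 level of the cluster (CPM, log scale). Points are coloured by class, both libraries are pooled, and a dotted line marks 1. The monocyte-like clusters reached 1.55 and 1.86.

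Day 0 cells gave the level of free RNA, because hashtagged cultures of all days were pooled before droplets were made. Erythroid-like cells, red cell precursors that should lack calprotectin, contained S100a8 at 439 CPM in the control library (24 cells) and 925 CPM in the heme library (147 cells). These are 1.13% and 1.95% of the level over all kept cells of the same library. S100a8 per S100a9 in these cells was 0.920 and 1.06. After thinning each cell to 2000 UMIs, 56.5% of the control and 72.6% of the heme erythroid-like cells still had a S100a8 UMI, so the presence of a UMI of this gene does not mark an expressing cell. Other day 0 classes read higher, with S100a8 at 782 CPM in progenitor-like and 997 in basophil or mast cell-like cells of the control library, and 1225 and 1163 CPM in those of the heme library. The erythroid-like cluster had a median of 18432.5 UMIs, against 4296 in the basophil or mast cell-like cluster and 9994 in the progenitor-like cluster led by Mpo. Free RNA may take a larger share of shallower cells, so these values cannot be placed above background with certainty. Over both libraries, monocyte-like (2786 CPM), macrophage-like (2771) and dendritic cell-like cells (1578) lay above both erythroid-like values, whereas the second macrophage-like cluster (980) and basophil or mast cell-like cells (942) lay close to the heme one. The median erythroid-like cell held 0.0422% of its UMIs as S100a8 in the control and 0.0717% in the heme library. On day 7 the median control cell held 0.0491% and the median heme cell 0.117%, so the typical control cell was close to the background of its library. For S100a9 the median heme cell held 0.0946% on day 7 and 0.0911% on day 0, so the typical heme cell of day 7 was near its day 0 level for the partner gene. On that day 77.4% of the control and 71.9% of the heme UMIs of the pair lay in the 10% of cells with most of them.

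The day 0 level of the pair itself rested on few cells. In the control culture 7 neutrophil-like cells, 1.97% of the kept cells, held 67.0% of the UMIs of the pair, and in the heme culture 13 such cells, 1.16%, held 39.1%. Over all barcodes with 1 hashtag S100a8 was 825 CPM on control day 0 and 1303 CPM on heme day 0, whereas over kept cells it was 3482 and 1831 CPM. The direction between the libraries on day 0 therefore turned with the limits on cells, of which the ribosomal one removed unequal shares.

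The free-RNA level of the other members was low. Erythroid-like day 0 cells contained S100a6 at 35.5 and 133 CPM, S100a10 at 53.3 and 44.6, S100a11 at 38.1 and 49.2 and S100a4 at 17.8 and 21.7 CPM in the control and heme libraries. In neutrophil-like cells of days 3 and 4, control S100a4 at 14.1 and 28.2 CPM was therefore also at or near background. After thinning to 2000 UMIs, S100a6 was found in 92.5% of control and 99.3% of heme day 7 cells, against 17.4% and 21.2% of erythroid-like cells. S100a11 was found in 92.9% and 78.5% of day 7 cells, against 13% and 4.79%. S100a10 was found in 84.1% and 59.7% of day 7 cells, against 17.4% and 10.3%, and its share was lowest on day 4, with 31.3% and 19.8%. S100a4 was found in 60.3% and 61.2% of day 7 cells, against 4.35% and 4.79%. These 4 members were thus present above the free-RNA level on day 7, and thinning left out 94 control and 42 heme cells of that day as too shallow. Without thinning, S100a8 was seen in 98.8% of control and 99.9% of heme day 7 cells, and S100a10 in 92.5% and 86.2%.

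Cell by cell, the pair split each culture into cells with very much and cells with very little. On day 4 the pair took a median of 22.1% of the UMIs of a control cell and 35.1% at the 90th percentile, but 0.0808% at the 10th. In heme cells of day 4 these values were 19.4%, 30.3% and 0.197%. On day 7 the 90th percentile was 0.373% in control and 16.5% in heme cells, so a minority of heme cells reached levels like those of day 4. The 4 other members together ranged less, from 0.344% to 0.981% of UMIs between the 10th and 90th percentile on control day 7 and from 0.351% to 1.18% on heme day 7.

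In cells thinned to 2000 UMIs, S100a8 and S100a9 were correlated with Pearson r of 0.95 to 0.97 on days 3 to 5 in both libraries, and 0.73 in control and 0.90 in heme cells on day 7. S100a8 and S100a10 were opposed, with r of -0.70, -0.76 and -0.74 on control days 3, 4 and 5 and -0.61, -0.54 and -0.60 on heme days 3, 4 and 5. These correlations describe cells of 1 culture that share a library and a fixed total, they combine differences between classes with differences within them, and they carry no test. Over the 10 cultures r was 0.80 for S100a8 with S100a6, -0.34 for S100a8 with S100a10 and 0.83 for S100a4 with S100a11, with cultures of a library sharing its preparation.

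The genes whose log2 CPM was most like that of each member over the 10 cultures were taken from 9708 genes by Pearson correlation. For S100a8 they were Lcn2 (0.993), Ceacam10 (0.988) and G0s2 (0.98), and for S100a9 they were Lcn2 (0.994), Pglyrp1 and Ceacam10 (both 0.985). Lcn2 encodes lipocalin 2 of neutrophil specific granules and Pglyrp1 a peptidoglycan recognition protein of neutrophil granules. For S100a6 they were Adora2b (0.993), C5ar1 and AI413582 (both 0.99), of which C5ar1 is the receptor of complement C5a. For S100a11 they were Hopx (0.984), Id2 (0.981) and Gadd45b (0.975), for S100a10 Tbca (0.969), Commd10 (0.965) and Psmd8 (0.963), and for S100a4 Phlda3 (0.976), Lrrc25 (0.975) and Vamp4 (0.973). With Spearman correlation the leading genes of all 6 members were at least partly other genes, so these lists depend on the measure.

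Of 10 other S100 genes listed for the family and found in the matrices, S100a13 and S100a1 were the ones with appreciable levels. S100a13 measured 145, 223, 239, 224 and 236 CPM in the control library and 91.3, 201, 237, 228 and 212 CPM in the heme library. S100a1 measured 56.4 to 199 CPM in control and 49.7 to 216 CPM in heme cultures. The remaining 8 genes of that list, S100a3, S100a5, S100a7a, S100a14, S100a16, S100b, S100g and S100z, were at most 3.83 CPM in any culture. Of the 10 genes, 4 had 20 or more UMIs on day 7 (S100a1, S100a13, S100a3 and S100a5). Of these 0 were past 2-fold, beside 14.3% of all counted genes higher and 7.24% lower.

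Among the 6 listed binding partners 2 were at least 2-fold higher with heme on day 7, beside 14.3% of 12838 genes. With so few genes this count describes single genes and not a group. Ahnak, the large scaffold protein that binds the S100A10 and annexin A2 complex, went from 309 CPM in control to 681 CPM in heme, and Anxa11 from 35.7 to 104 CPM. Anxa2, the partner of S100A10, was 738 CPM in control and 524 CPM in heme on day 7, below 2-fold. Anxa1, the partner of S100A11, was 387 and 546 CPM, Cacybp, which binds S100A6, was 137 CPM in heme, less than 2-fold above control, and Myh9, the myosin heavy chain bound by S100A4, was 301 and 443 CPM. Anxa2 thus lay in the same direction as S100a10, lower with heme, while Anxa1 read higher where S100a11 was lower. Of the 4 listed receptors of S100A8 and S100A9, 0 were past 2-fold on day 7, beside 14.3% of all counted genes higher and 7.24% lower. Tlr4, the Toll-like receptor 4, was 40.7 CPM in control and 68.4 CPM in heme, its coreceptor Ly96 was 19.2 and 18.1 CPM, Bsg was 386 and 237 CPM, and Ager was near 1 CPM in both.

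Neutrophil granule genes showed which of them moved with the pair. Of 5 secondary granule genes, 4 were at least 2-fold higher with heme on day 7, beside 14.3% of all counted genes. Their median log2 ratio was 2.96 beside 0.27 for all genes. Ngp went from 189 to 3604 CPM, Ltf, which encodes lactoferrin, from 62.9 to 871, Camp, which encodes cathelicidin, from 92.7 to 720 and Lcn2 from 174 to 1005, and Chil3 measured 393 and 599 CPM. On day 7, 3 of 4 primary granule genes were also at least 2-fold higher, though at 38.5 to 95 CPM in the heme culture. On day 4 all 4 primary granule genes were at least 2-fold lower with heme, beside 2.92% of all counted genes, with a median log2 ratio of -2.49 beside 0.28. On day 3 already 3 of the 4 were at least 2-fold lower, beside 0.524% of all counted genes. Mpo, which encodes myeloperoxidase, was 112 CPM in control and 33.3 in heme on day 4, and Elane, neutrophil elastase, was 701 and 103 CPM. The pair itself differed little on that day. Of 5 tertiary granule and maturation genes, 2 were at least 2-fold higher on day 7, Mmp8 (334 and 964 CPM) and Cxcr2 (3.02 and 10.9 CPM). Of 6 myeloid transcription factors, 3 were at least 2-fold higher on day 7, namely Cebpd (40.6 and 90.3 CPM), Cebpe (31.9 and 64.0 CPM) and Gfi1 (1.01 and 6.05 CPM), while Cebpa, Cebpb and Spi1 were not. The counts of maturation genes and factors stand beside the same 14.3% of all counted genes and describe single genes.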

How the data were processed

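Droplet 3′ libraries of 2 groups were analysed, each a pool of 5 hashtagged cultures. Values in the deposited matrices are raw UMI counts that the authors obtained from Cell Ranger (5.0.0 in the matrix headers, 4.0.0 in the submitters' processing notes, which name the build GRCm38.p6). The deposited hashtag calls were made by the authors with Seurat and were used as they stand, so barcodes called as doublets or negatives were left out and no doublet caller was run. A cell was kept, by the study's own limits, if 500 to 5000 genes were detected in it and if less than 15% of its UMIs were mitochondrial and less than 30% came from ribosomal protein genes (Rps or Rpl names). Exposures of 0, 24, 72 and 96 h stand in the design text, while the labels give harvests on days 4, 5 and 7, which differ for day 5, so hashtag days were used.

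Members and gene lists were chosen with earlier results of these data known. UMIs were summed per culture and divided by the total (CPM). With 1 library per group no test was made. Intervals are exact (Poisson, Clopper-Pearson, or conditional for a ratio of 2 counts, at 95%). A gene was counted as higher or lower past 2-fold where both cultures together held 20 or more UMIs. Genes named were the members, all listed partner, receptor, granule, family and factor genes, the 3 genes most like each member, and the 3 leading genes of a cluster. Clustering used scran 1.30.0 factors, 2000 variable genes without S100, mitochondrial and ribosomal genes, 15 components and Leiden resolution 1 in scanpy 1.11.5. A cluster could be named only if at least 3 markers were raised, but that number alone was not enough. The Arg1, Fn1 and Slc7a2 cluster had 5 raised macrophage markers. The Igkc, Igha and Ighm cluster had 5 raised granulocyte-monocyte progenitor markers. Both stayed unnamed, with 0 of those markers among their 10 leading genes. Thresholds were taken from earlier work on these data, so class sizes may differ from those of the study. Cells were thinned to 2000 UMIs for shares of cells, and shallower cells were left out. Alternatives were other cell limits, TMM (edgeR 4.0.16) and DESeq2 1.42.0 factors, other totals, cell weights and cluster settings. The ratio script was tested on simulated counts. Positions come from GENCODE M21 and promoters from RefSeq.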

Additional observations from a re-analysis of the deposited data

Results flagged for a closer look

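S100a4 differed in direction between exposure days. The log2 ratios between the libraries were -0.64 (day 4), -0.062 (day 5) and 0.25 (day 7), with heme above control for positive values, so the day 7 culture lay on the other side of 0 from both earlier days. With TMM factors the day 7 value was -0.0029, and over all barcodes of 1 hashtag the day 5 value was 0.16. The difference between days was not tested, since each day had 1 culture per group, and the unexposed day 3 ratio was -0.47.

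Barcodes without a hashtag call, which entered no comparison, also held S100 transcripts. In the heme library 1218 such barcodes, with a median of 3164.5 UMIs, held the S100a8 and S100a9 pair at 28964 CPM, above the 10168 CPM of 652 such barcodes in the control library, which had a median of 2394 UMIs. The 4 other members together held 1598 CPM in such heme barcodes and 1488 CPM in such control barcodes. These barcodes carry no culture day.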

How the results depend on the processing

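All values here are log2 ratios of heme to control, and the other 4 members were summed. As reported, the pair read 0.12, 0.14, 0.29 and 2.60 on days 3, 4, 5 and 7 and the other 4 read 0.015, 0.11, 0.33 and 0.088. With all barcodes of 1 hashtag, the pair read -0.47, -0.21, -0.57 and 2.02 on days 3, 4, 5 and 7 and the other 4 read -0.21, -0.063, 0.065 and 0.015 on days 3, 4, 5 and 7. Of single members S100a8 read -0.44, -0.16 and -0.46 on days 3, 4 and 5, S100a9 read -0.51, -0.26 and -0.70 on days 3, 4 and 5, S100a4 read 0.16 on day 5 and S100a6 read -0.11 on day 3. With a limit of 500 genes alone, the pair read -0.47, -0.20, -0.57 and 2.04 on days 3, 4, 5 and 7 and the other 4 read -0.21, -0.059, 0.066 and 0.016 on days 3, 4, 5 and 7. Of single members S100a8 read -0.44, -0.15 and -0.45 on days 3, 4 and 5, S100a9 read -0.51, -0.26 and -0.70 on days 3, 4 and 5, S100a4 read 0.16 on day 5 and S100a6 read -0.11 on day 3. With TMM factors, the pair read -0.21, -0.14, -0.0041 and 2.35 on days 3, 4, 5 and 7 and the other 4 read -0.31, -0.17, 0.039 and -0.16 on days 3, 4, 5 and 7. Of single members S100a8 read -0.18 and -0.097 on days 3 and 4, S100a9 read -0.23, -0.19 and -0.13 on days 3, 4 and 5, S100a4 read -0.0029 on day 7 and S100a6 read -0.090 on day 3. With DESeq2 size factors, the pair read -0.14, -0.093, 0.052 and 2.36 on days 3, 4, 5 and 7 and the other 4 read -0.25, -0.12, 0.095 and -0.15 on days 3, 4, 5 and 7. Of single members S100a8 read -0.12 and -0.048 on days 3 and 4, S100a9 read -0.17, -0.15 and -0.078 on days 3, 4 and 5 and S100a6 read -0.028 on day 3. With a total free of ribosomal, mitochondrial and S100 genes, the pair read 0.078, 0.24 and 2.54 on days 4, 5 and 7 and the other 4 read -0.035, 0.052, 0.29 and 0.029 on days 3, 4, 5 and 7. With the mean over cells, the pair read -0.013, -0.044, 0.054 and 2.01 on days 3, 4, 5 and 7 and the other 4 read -0.039, -0.069, 0.21 and 0.16 on days 3, 4, 5 and 7. Of single members S100a8 read -0.017 on day 4 and S100a9 read -0.034, -0.076 and -0.049 on days 3, 4 and 5. Without the 5% of cells with most UMIs, the pair read 0.11, 0.27 and 2.61 on days 4, 5 and 7 and the other 4 read -0.038, 0.078 and 0.31 on days 3, 4 and 5. Of single members S100a9 read -0.0099 on day 3. After division by the day 3 ratio, the pair read 0.016, 0.16 and 2.47 on days 4, 5 and 7 and the other 4 read 0.10, 0.31 and 0.073 on days 4, 5 and 7. Of single members S100a9 read -0.011 on day 4 and S100a4 read 0.41 on day 5. The sign of the pair on days 3 to 5 thus changed with the cell limits, the scaling or the weight of cells. That of the other 4 changed on days 3, 4 and 7, the last between -0.16 and 0.16. On day 5 the other 4 stayed positive, between 0.039 and 0.33. The cause of these changes was not tested. On day 7 the pair stayed between 2.01 and 2.61 and S100a8, S100a9, S100a6, S100a10 and S100a11 kept their direction under these 8 alternatives. Within neutrophil-like cells the day 7 ratio of -0.85 read -1.09 with 30 principal components, -0.82 at resolution 0.5, -1.01 at resolution 2 and 1.27 with total scaling before clustering, and the cause of that reversal was not tested. With 100 in place of 20 UMIs, genes past 2-fold numbered 958 in place of 1724 on day 0 and 559 in place of 1080 on day 3. They numbered 930 in place of 1573 on day 4 and 949 in place of 1608 on day 5. Fewer genes were counted, and the share of them past 2-fold also fell. It went from 14.7% to 10.6% on day 0, 8.57% to 5.24% on day 3, 12.6% to 8.89% on day 4 and 12.9% to 9.09% on day 5.

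No paired analysis was possible because each group was 1 library and no test was made. The counting intervals are narrow and leave out the variation between cultures, mice and libraries, which could not be estimated. Removal of cells differed between the libraries in the unexposed cultures already, and hashtagged doublets were left out by the deposited calls alone. Most neutrophil-like clusters were mainly of 1 library after day 3. The Camp, Ngp and Hist1h3c cluster held cells of both, with 294 control and 396 heme cells on day 4. Differences between the libraries on days 4 to 7 cannot be told apart from those of library preparation, except by setting them beside days 0 and 3. The control value within neutrophil-like cells on day 7 rested on 30 cells.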
